A study of Mus musculus with 9 samples.

Results

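The Wnt ligands, their Frizzled receptors and their secreted antagonists were followed in perigonadal white adipose tissue of mice. Genes were taken by symbol: Wnt followed by a digit, Fzd followed by digits, Frzb, Sfrp followed by a digit, and Dkk followed by a digit or by l1. This gave 38 of the 16299 genes formed from exon array probe sets with a single symbol, namely 19 ligands, 9 receptors and 10 genes grouped as secreted antagonists. The grouping was by symbol alone. Wnt proteins are secreted, lipid-modified ligands that bind Frizzled receptors together with Lrp5 or Lrp6 and stabilise beta-catenin, or act through branches that do not use beta-catenin. Sfrp proteins and Frzb carry a Frizzled-like domain and bind Wnt ligands outside the cell, and Dkk1 acts on Lrp5 and Lrp6. In fat, beta-catenin signalling is known to hold back the formation of adipocytes, and Sfrp5 is known as a protein that mouse white adipocytes secrete.

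The tissue came from mice aged 4 months, with 3 arrays for each of 3 genotypes: G609G/G609G, LCS/LCS and wild type (WT). G609G and LCS are alleles of Lmna, the gene of lamins A and C. The first models Hutchinson-Gilford progeria and yields progerin, a truncated form of lamin A, whereas from LCS lamin C is made and lamin A is not. The labels name no sex and no strain, and nothing beyond the word biological ties an array to an animal of its own, so the p-values cover only how far these arrays differ from each other, and that may be a technical spread. Wild-type mice carry neither allele, and neither allele is limited to adipocytes.

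The deposited values are log2 intensities, and their median over 229581 probe sets was 6.57 ± 0.06 in G609G, 7.23 ± 0.04 in LCS and 7.21 ± 0.06 in WT (SD, n = 3 arrays each). The 3 G609G arrays were therefore raised by 0.41 to 0.47 so that a fold change is relative to the median gene, while the 6 other arrays moved by at most 0.05. All intensities below are on this scale unless called deposited. The offset was not the same at every intensity: in G609G minus WT the median deposited difference was -0.58 for genes with a mean between 7 and 8, -0.28 between 5 and 6, and 0.10 under 4. The shift thus raised dim genes by more than the median difference of their class, and rises of dim members in G609G are given with their deposited values. Genes with a mean between 6 and 9 were raised by less than that of their class (-0.52 from 6 to 7, -0.58 from 7 to 8 and -0.49 from 8 to 9). Falls of members there are thus larger than they would be relative to their own class. The adipocyte hormone Adipoq averaged 13.00 ± 0.07 in G609G, 13.36 ± 0.01 in LCS and 13.35 ± 0.10 in WT, and Lmna did not pass the test against WT in either mutant (adjusted p = 0.119 in G609G and 0.633 in LCS). The number of arrays limits the precision.

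**Figure D1:**
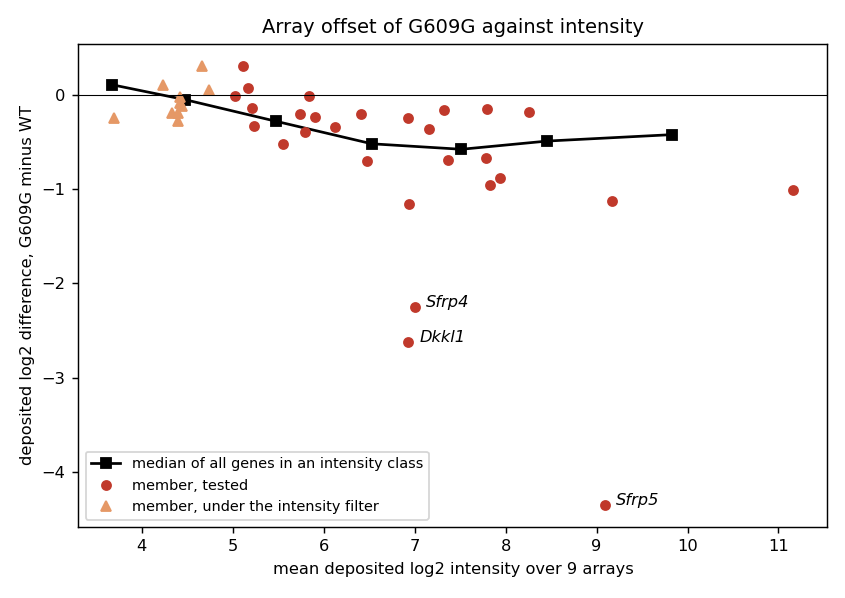
Deposited log2 difference of G609G minus WT (vertical axis) against the mean deposited log2 intensity over 9 arrays (horizontal axis). Black squares are medians of all genes with at least 3 probe sets in 7 intensity classes, circles are the 28 tested members and triangles the 10 members under the intensity filter. The squares run from 0.10 at the dim end to -0.58 between 7 and 8, and Sfrp5, Dkkl1 and Sfrp4 lie far below them.

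Of the 38 genes, 28 held 3 probe sets or more, exceeded the 25th percentile of gene means (4.86) and were tested with limma among 11805 genes, with a call at an adjusted p under 0.05. The other 10, Wnt1, Wnt3, Wnt6, Wnt7a, Wnt8a, Wnt8b, Wnt16, Fzd10, Frzb and Dkk4, had deposited gene values from 3.37 to 5.14 on the 9 arrays and were not tested. Levels of different genes are not compared, since each has its own probes. Sfrp4, Sfrp5, Fzd1 and Fzd4 were lower in G609G and higher in LCS than in WT. For 3 of them the RefSeq promoter table (GRCm38.p6) holds a window, and these windows are shown because their genes were called lower in G609G and higher in LCS under each of the 4 scalings compared below. Wnt2b and Dkk1 were called in the other order, higher in G609G and lower in LCS, but were below WT in G609G as deposited, and their windows are not shown.

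The 250 bases before the annotated start are given 5′ to 3′ on the gene's strand, with capitals marking the motifs found: the GC box GGGCGG and its reverse complement CCGCCC, the TATA box TATAAA or TTTATA, and the TCF/LEF core CTTTGA or TCAAAG, at which factors that bind beta-catenin can sit. The E-box CACGTG was also searched on both strands. Sfrp5 lies at chr19:42202253-42202502 on the minus strand, Fzd4 at chr7:89404116-89404365 on the plus strand and Fzd1 at chr5:4758217-4758466 on the minus strand.
Sfrp5: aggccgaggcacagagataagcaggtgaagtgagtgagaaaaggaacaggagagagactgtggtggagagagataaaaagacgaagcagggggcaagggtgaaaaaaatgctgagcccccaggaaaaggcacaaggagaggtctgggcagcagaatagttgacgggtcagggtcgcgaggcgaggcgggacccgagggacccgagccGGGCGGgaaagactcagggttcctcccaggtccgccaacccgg
Fzd4: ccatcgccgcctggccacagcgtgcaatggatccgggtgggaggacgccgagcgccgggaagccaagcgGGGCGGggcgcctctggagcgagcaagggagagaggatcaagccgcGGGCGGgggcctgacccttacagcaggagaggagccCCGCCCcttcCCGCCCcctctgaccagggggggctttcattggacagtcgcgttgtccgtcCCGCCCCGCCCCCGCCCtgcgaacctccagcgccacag
Fzd1: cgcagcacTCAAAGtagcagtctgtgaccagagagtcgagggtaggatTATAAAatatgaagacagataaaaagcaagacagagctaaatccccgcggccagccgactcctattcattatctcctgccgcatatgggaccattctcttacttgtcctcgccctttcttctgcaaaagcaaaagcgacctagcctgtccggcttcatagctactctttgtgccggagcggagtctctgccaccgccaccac
Sfrp5 held 1 GC box, 43 bases before the start, and Fzd4 held 7, of which the 2 that begin 38 and 33 bases before the start share a base. Fzd1 held no GC box, 1 TCF/LEF core that begins 242 bases before the start, and 1 TATA box that begins 202 bases before it. Among 26 members with a window (29 windows), 19 had a GC box, 5 a TCF/LEF core, 4 a TATA box and 1 an E-box in at least one window. Of all 32851 windows of this length, 32.7% held the GC box, 13.8% the TCF/LEF core, 12.4% the TATA box and 6.02% the E-box. The member counts are per gene and the shares per window, so they are not alike. Member windows had a GC content of 48.4% (Wnt8b) to 87.6% (Wnt3a), most of them above the median of 52.4% over all windows. The part of base composition in the motif counts was not tested. Motifs are matches of letters only, and no binding was measured.

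G609G was compared with WT to ask which members differ in fat samples of the progeria model. Sfrp5, Dkkl1 and Sfrp4, which were grouped by symbol as secreted antagonists, fell most, with log2 folds of -3.90, -2.17 and -1.80. Of 8 tested Frizzled receptors 6 also fell. The ligand Wnt5a fell by 0.71, while Dkk2 rose by 0.75. In all, 8 members were called higher and 11 lower of 28 tested, against 33.4% higher and 36.5% lower of all genes, and 69.9% of all genes were called in either direction, so the shares of members called are near those of the array as a whole. The groups did not overlap for 18 of 28 members and for 70.8% of all genes. Without WT replicate 3, 5 members were called higher. At a fold of 1.5 or more 1 member was higher and 5 were lower, against 9.64% and 16.2% of all genes. As deposited, without the shift, 1 member was called higher and 16 lower, against 8.27% and 70.1% of all genes on that scale. The median log2 fold over tested members was 0.09, and -0.01 over all genes.

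Sfrp5 had intensities of 5.94, 6.59 and 5.90 in G609G, 11.56, 11.50 and 11.52 in LCS, and 10.05, 9.95 and 10.12 in WT. All G609G arrays lay far under all WT arrays and all LCS arrays above them, with no overlap. The change in G609G was 14.9-fold (log2 fold -3.90, SE 0.14, adjusted p = 1.48e-10, limma), and in LCS 2.80-fold upward (log2 fold 1.49, SE 0.14, adjusted p = 4.16e-06, limma). All 4 of its probe sets were lower in G609G, with log2 differences of -5.21 to -2.47, and higher in LCS, with 1.37 to 1.99. Deposited G609G values of Sfrp5 were 5.47, 6.13 and 5.49, those of Sfrp4 5.09, 5.15 and 5.35, and those of Dkkl1 5.65, 5.52 and 5.31. Except for the 6.13 of Sfrp5, these lie not far above the filter of 4.86, which is a percentile of gene means and not a measured background. Where such values are near background, the folds of these 3 genes in G609G, against WT and against LCS, may be understated.

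Sfrp4, another Wnt-binding antagonist that fat secretes, had 5.56, 5.61 and 5.76 in G609G, 8.36, 8.31 and 8.31 in LCS, and 7.47, 7.48 and 7.40 in WT. The 3 groups did not overlap, in the same order as for Sfrp5. The log2 fold was -1.80 in G609G (SE 0.07, adjusted p = 5.3e-10, limma) and 0.88 in LCS (SE 0.07, adjusted p = 1.61e-06). Sfrp2, which is known from fibroblasts and adipocyte progenitors, had 8.87, 9.0 and 9.19 in G609G, 9.30, 9.16 and 9.21 in LCS, and 9.66, 9.76 and 9.68 in WT. It was lower in both mutants than in any WT array, with a log2 fold of -0.67 in G609G (SE 0.07, adjusted p = 3.46e-06) and -0.47 in LCS (SE 0.07, adjusted p = 0.000196). Of the 5 probe sets of Sfrp2, 4 were lower in each mutant and 1 was higher, by 0.50 in G609G and 0.03 in LCS. Both mutants were compared with the same 3 WT arrays.

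Sfrp1, which binds Wnt ligands like the other Sfrp proteins, had 8.11, 8.21 and 8.44 in G609G, 9.05, 8.92 and 8.84 in LCS, and 7.95, 7.96 and 8.05 in WT. The LCS arrays lay above all others, and the G609G arrays lay a little above WT. The log2 fold in LCS was 0.95 (SE 0.08, adjusted p = 2.42e-06, limma). In G609G it was 0.27 (adjusted p = 0.0126) relative to the median gene and -0.18 (adjusted p = 0.114) as deposited, so the direction there depends on the scaling. All 4 probe sets were higher in LCS.

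**Figure D2:**
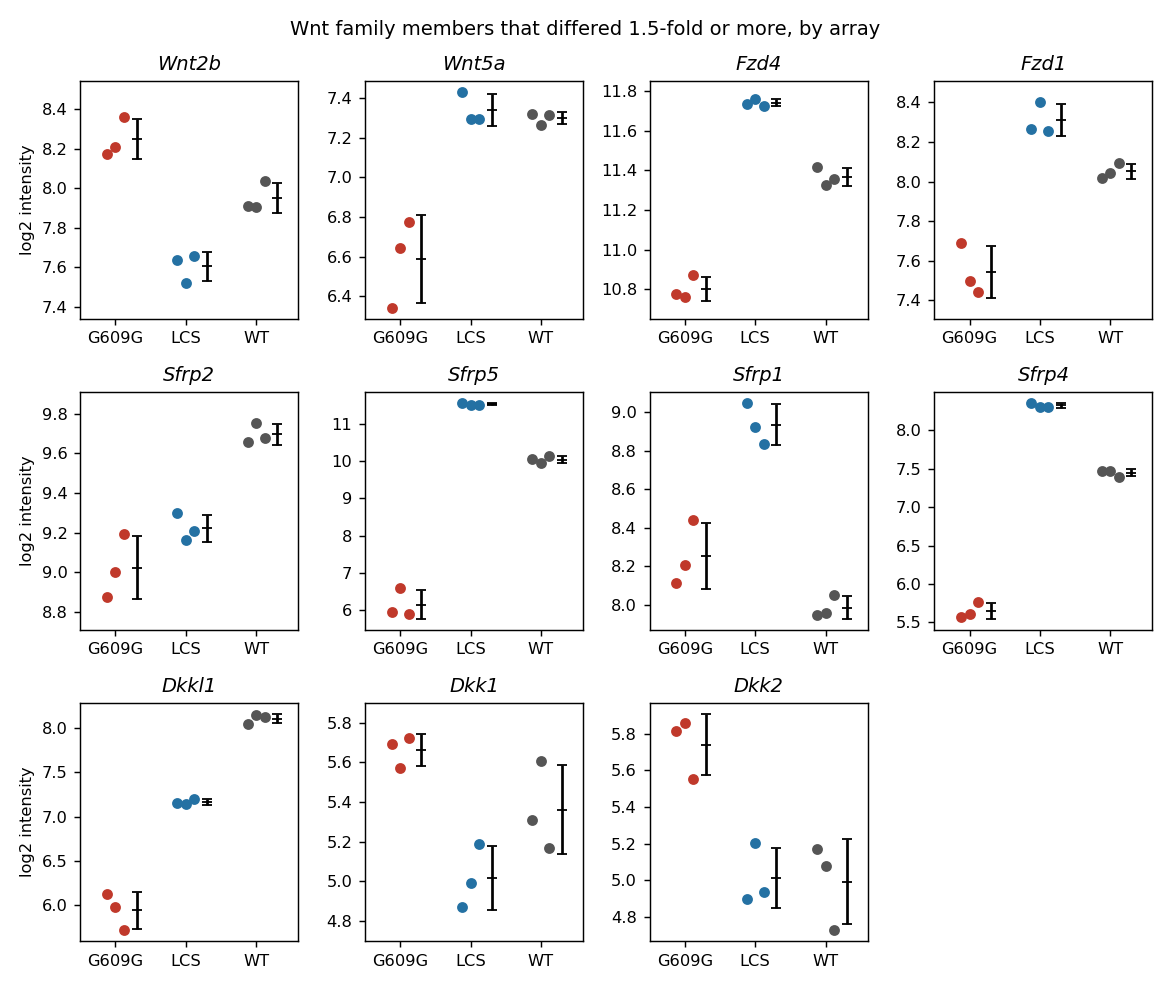
Log2 intensity (vertical axes, a range of its own in each panel) of the 11 members that differed by a fold of 1.5 or more in at least one comparison, on 3 G609G, 3 LCS and 3 WT arrays. Points are arrays, and the bars beside them are the mean and SD of the group. Sfrp5, Sfrp4, Fzd4 and Fzd1 are lowest in G609G and highest in LCS, whereas Wnt2b is highest in G609G and lowest in LCS.

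Dkkl1, grouped with the secreted antagonists by its symbol alone, encodes a relative of the Dickkopf proteins that is known from developing sperm. It had 6.12, 5.98 and 5.72 in G609G, 7.15, 7.14 and 7.20 in LCS, and 8.05, 8.15 and 8.13 in WT. The groups did not overlap, and both mutants were lower. The log2 fold was -2.17 in G609G (SE 0.10, adjusted p = 1.27e-09, limma) and -0.94 in LCS (SE 0.10, adjusted p = 9.14e-06). The sperm protamine Prm2 was present in the same samples and also lower in the mutants, at 10.15 ± 0.04 in G609G, 7.10 ± 0.10 in LCS and 11.44 ± 0.02 in WT. The order of the mutants was the opposite, since Prm2 was lowest in LCS and Dkkl1 in G609G. Of 12 epididymis and testis markers 2 were higher and 9 lower in G609G, and 3 higher and 6 lower in LCS. Their summed linear intensity as deposited was 22120 to 23090 in G609G, 52900 to 54100 in LCS and 69420 to 72140 in WT. The part of such tissue in the Dkkl1 result was not tested.

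Dkk2, a Dickkopf protein that acts on Lrp5 and Lrp6, had 5.81, 5.86 and 5.55 in G609G, 4.90, 5.20 and 4.94 in LCS, and 5.17, 5.08 and 4.73 in WT. The G609G arrays lay above all others. The log2 fold in G609G was 0.75 (SE 0.14, adjusted p = 0.000357, limma), and 0.30 as deposited. Dkk1 had 5.69, 5.57 and 5.72 in G609G, 4.87, 4.99 and 5.19 in LCS, and 5.31, 5.61 and 5.17 in WT. Its WT arrays overlapped both mutants, and its calls were at the edge in G609G (log2 fold 0.30, adjusted p = 0.0459, limma) and in LCS (log2 fold -0.34, adjusted p = 0.045). As deposited the G609G difference of Dkk1 was -0.15 (adjusted p = 0.256), the opposite direction, and with loess scaling, an alternative added after seeing the data, it was 0.11 (adjusted p = 0.438). With the replicate number as a block both calls were lost (adjusted p = 0.0554 in G609G and 0.0556 in LCS). The G609G call was also lost without WT replicate 1 or 3, G609G replicate 1 or 3, or LCS replicate 2 (adjusted p from 0.0559 to 0.187). The LCS call was lost with quantile normalization (adjusted p = 0.0788) and with loess scaling (adjusted p = 0.0573). It was also lost without WT replicate 1 or 2, G609G replicate 1, or LCS replicate 1 or 2 (adjusted p from 0.0508 to 0.186). Dkk3, which is not known to act on Lrp5 or Lrp6, did not pass the test in G609G (log2 fold 0.24, adjusted p = 0.057), passed it with that block (adjusted p = 0.0331) or without G609G replicate 3 (adjusted p = 0.0295), and was near 0 in LCS (0.01). As deposited Dkk3 differed by -0.21 in G609G (adjusted p = 0.0706).

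Among receptors, Fzd4, known as the receptor of Norrin as well as of Wnt ligands, had 10.77, 10.76 and 10.87 in G609G, 11.74, 11.76 and 11.73 in LCS, and 11.42, 11.33 and 11.36 in WT. The groups did not overlap. The log2 fold was -0.56 in G609G (SE 0.04, adjusted p = 3.32e-08, limma) and 0.38 in LCS (SE 0.04, adjusted p = 5.01e-06), and its 9 probe sets all went down in G609G and all up in LCS. Fzd1 followed the same order, with 7.69, 7.50 and 7.44 in G609G, 8.27, 8.40 and 8.26 in LCS, and 8.02, 8.04 and 8.09 in WT. Its log2 fold was -0.51 in G609G (SE 0.07, adjusted p = 5.69e-05) and 0.26 in LCS (SE 0.07, adjusted p = 0.0148). Of the 4 probe sets of Fzd1, 3 were lower and 1 was higher in G609G (log2 differences of -1.03 to 0.37). All 4 were higher in LCS. Leaving out WT replicate 1 (adjusted p = 0.059) or LCS replicate 2 (adjusted p = 0.066) ended the LCS call of Fzd1.

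The other receptors changed by less. Fzd6, known from planar cell polarity, fell by 0.43 in G609G (adjusted p = 0.00111, limma), and Fzd2, Fzd3 and Fzd8 fell by 0.22 to 0.26. The calls of Fzd2, Fzd3 and Fzd8 were lost with loess scaling (adjusted p = 0.192, 0.0503 and 0.228), which follows the offset at each intensity. They were also lost without single arrays: Fzd2 without replicate 2 of WT (adjusted p = 0.0585) and without replicate 2 of G609G (adjusted p = 0.0512), Fzd3 without WT replicate 3 (adjusted p = 0.06), and Fzd8 without WT replicate 3 (adjusted p = 0.0557). Fzd7 was higher by 0.29 (adjusted p = 0.02), but -0.16 as deposited, and lost its call without WT replicate 1 or 3 or G609G replicate 2 or 3 (adjusted p from 0.058 to 0.0798). Fzd5 did not pass (log2 fold 0.20, adjusted p = 0.0711) and passed with the replicate block (adjusted p = 0.0335). It also passed when WT replicate 1 was left out (adjusted p = 0.0459), as when G609G replicate 3 was (adjusted p = 0.0256). As deposited Fzd5 was called lower in G609G (log2 fold -0.25, adjusted p = 0.0191), so its direction depends on the scaling. In LCS, Fzd4 and Fzd1 were called and 6 receptors were not, with log2 folds from -0.10 to 0.12.

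**Figure D3:**
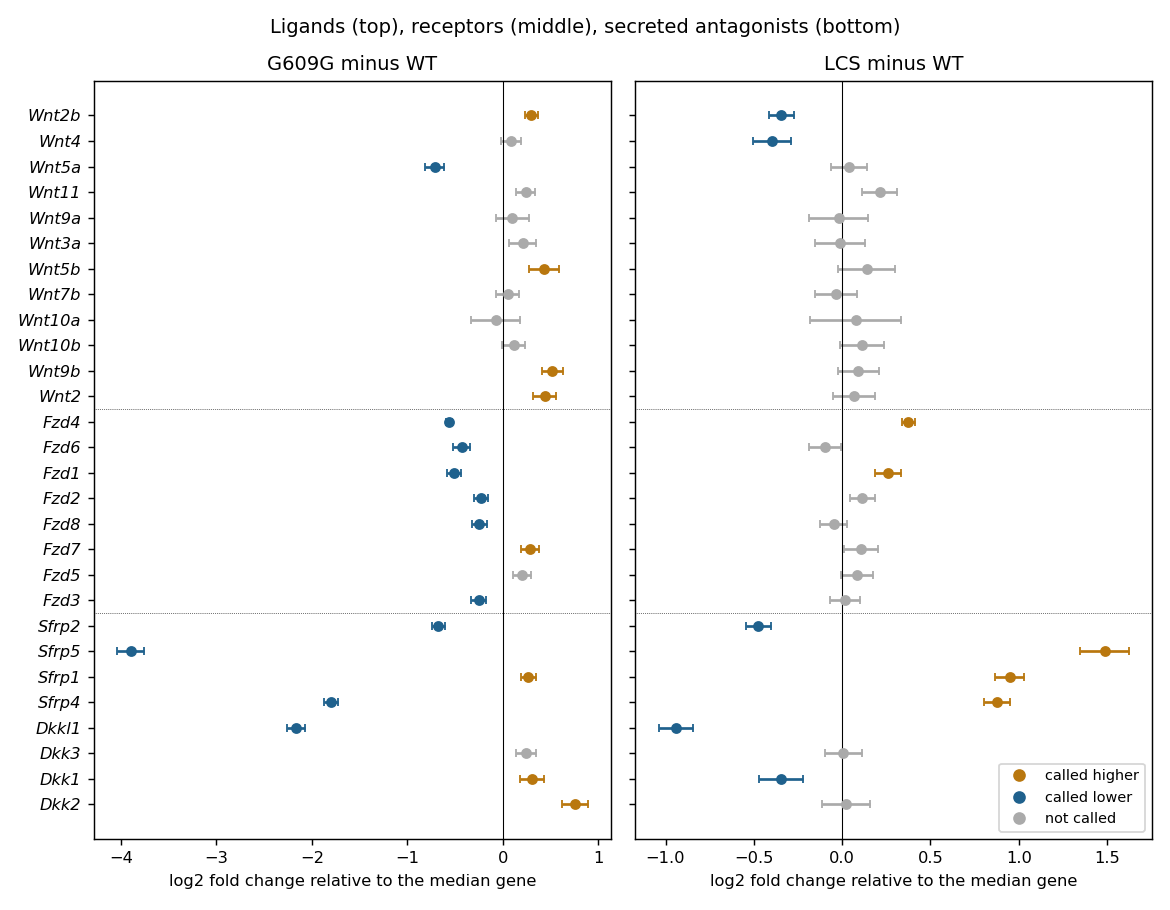
Log2 fold change relative to the median gene (horizontal axes, of different range) with its standard error for the 28 tested members, G609G minus WT at left and LCS minus WT at right. From top to bottom are 12 ligands, 8 receptors and 8 secreted antagonists, with called rises in orange, called falls in blue and members not called in grey. Most ligands are grey, most receptors are blue in G609G, and the widest changes are those of Sfrp5, Dkkl1 and Sfrp4.

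Among ligands, Wnt5a, which acts mainly without beta-catenin, had 6.34, 6.64 and 6.78 in G609G, 7.43, 7.30 and 7.29 in LCS, and 7.32, 7.27 and 7.32 in WT. Only the G609G arrays stood apart. Its log2 fold was -0.71 in G609G (SE 0.10, adjusted p = 5.34e-05, limma) and 0.04 in LCS (SE 0.10, adjusted p = 0.799), and all 14 probe sets were lower in G609G. Wnt2b, a ligand of the beta-catenin branch, had 8.17, 8.21 and 8.36 in G609G, 7.64, 7.52 and 7.66 in LCS, and 7.91, 7.91 and 8.04 in WT. It fell in LCS (log2 fold -0.34, SE 0.07, adjusted p = 0.00189). In G609G it was 0.30 relative to the median gene (adjusted p = 0.00228) and -0.15 as deposited (adjusted p = 0.147), so its rise there depends on the scaling.

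Wnt9b, Wnt2 and Wnt5b were called higher in G609G, with log2 folds of 0.52, 0.44 and 0.43. All are dim, with WT means of 5.10, 4.99 and 5.79, and as deposited they differed by 0.07, -0.01 and -0.02. The Wnt2 call was lost with loess scaling (adjusted p = 0.115). The Wnt5b call was lost without WT replicate 3, G609G replicate 1 or G609G replicate 2 (adjusted p from 0.0523 to 0.143). Wnt4 was lower in LCS (log2 fold -0.39, adjusted p = 0.0118, limma), and lost that call when replicate 3 of WT (adjusted p = 0.0521) or of LCS (adjusted p = 0.0623) was left out. Quantile normalization also ended that call (adjusted p = 0.0805). Wnt11 did not pass in G609G (log2 fold 0.24, adjusted p = 0.0519), passed with the replicate block (adjusted p = 0.0301), and passed without G609G replicate 3 (adjusted p = 0.00657), but differed by -0.21 as deposited (adjusted p = 0.0655). Wnt10b, a ligand known to hold back adipocyte formation, did not pass in either mutant (log2 fold 0.11 in each), and passed as higher in G609G without G609G replicate 3 (adjusted p = 0.0462). As deposited Wnt10b was called lower in G609G (log2 fold -0.33, adjusted p = 0.0108). Wnt3a, Wnt7b, Wnt9a and Wnt10a did not pass in either mutant. Wnt9a passed as higher in G609G without G609G replicate 3 (adjusted p = 0.0127). As deposited Wnt4 (-0.36, adjusted p = 0.00957), Wnt7b (-0.40, adjusted p = 0.00348) and Wnt9a (-0.35, adjusted p = 0.0464) were called lower in G609G, while with the shift their differences were above 0 and not called. Wnt10a had the widest spread among the tested members, with 6.23, 5.75 and 4.86 in G609G.

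LCS was compared with WT to ask which members differ where lamin C is made without lamin A. Sfrp5, Sfrp1 and Sfrp4 rose most, followed by Fzd4 and Fzd1, while Dkkl1, Sfrp2, Wnt4, Wnt2b and Dkk1 fell. The 5 rises and 5 falls of 28 tested members stand against 21.8% higher and 17.1% lower of all genes. At a fold of 1.5 or more, 3 members were higher and 1 lower, against 3.22% and 5.21% of all genes. The median log2 fold was 0.05 over members and 0.02 over all genes. Of the 12 tested ligands 0 rose (limma, and 0 also at an unadjusted p under 0.05) and 2 fell. The groups did not overlap for 10 of 28 members, against 56.7% of all genes, and 38.9% of all genes were called in either direction. With no adjustment for the array offset these counts were the same, 5 higher and 5 lower, against 21.8% and 13.1% of all genes.

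Compared directly, G609G was lower than LCS for 12 members and higher for 6, against 36.7% and 36.5% of all genes and 73.2% in either direction. The groups did not overlap for 18 members, against 74.9% of all genes. At a fold of 1.5 or more 7 members were lower and 3 higher, against 17.4% and 12.0% of all genes. As deposited 20 members were lower and 0 higher, against 69.1% and 9.38% of all genes on that scale, and none was higher at an unadjusted p under 0.05 in limma either. Sfrp5 differed by 41.7-fold (log2 fold -5.38, SE 0.14, adjusted p = 6.38e-12, limma) and Sfrp4 by 6.41-fold (log2 fold -2.68, SE 0.07, adjusted p = 1.09e-11). Fzd4 was 1.92-fold lower (log2 fold -0.94, adjusted p = 2.25e-10) and Fzd1 1.70-fold lower (log2 fold -0.77, adjusted p = 1.33e-06). Wnt2b, Dkk1 and Dkk2 were higher in G609G than in LCS, by log2 folds of 0.64, 0.65 and 0.73, and by 0.16, 0.17 and 0.25 as deposited. Under the shift to the median gene, the deposited values, quantile normalization and loess alike, G609G minus WT kept 1 rise (Dkk2) and 8 falls (Dkkl1, Fzd1, Fzd4, Fzd6, Sfrp2, Sfrp4, Sfrp5 and Wnt5a). LCS minus WT kept 5 rises (Fzd1, Fzd4, Sfrp1, Sfrp4 and Sfrp5) and 3 falls (Dkkl1, Sfrp2 and Wnt2b).

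Other cell types of the samples moved with these groups. Of 10 adipocyte markers 3 were higher and 6 lower in G609G, and 6 higher and 1 lower in LCS, with summed linear intensities as deposited of 30080 to 31000 in G609G, 52720 to 54120 in LCS and 47480 to 47670 in WT. Of 10 progenitor and fibroblast markers 1 was higher and 8 lower in G609G, and 7 higher and 1 lower in LCS. Their sums were 13590 to 13990 in G609G, 18740 to 19140 in LCS and 16800 to 16900 in WT. Skeletal muscle markers were higher for 9 of 9 in G609G and for 3 in LCS, with G609G sums of 44700 to 46230, against 2010 to 2034 in LCS and 802.1 to 879.1 in WT. Mesothelial markers, 2 higher and 6 lower of 10 in G609G and 7 higher and 2 lower in LCS, summed to 4052 to 4396 in G609G, 7101 to 7612 in LCS and 6240 to 6735 in WT. Macrophage markers were lower for 6 of 8 and higher for 1 in G609G, and higher for 5 in LCS, with G609G sums of 2427 to 2824, against 7590 to 8092 in LCS and 6141 to 6455 in WT. Endothelial markers were higher for 5 and lower for 1 of 6 in each mutant, with sums of 5254 to 5498 in G609G, 5885 to 6114 in LCS and 4817 to 5293 in WT. Smooth muscle and pericyte markers were higher for 6 of 7 in G609G, and 3 higher and 3 lower in LCS, with sums of 9090 to 9632 in G609G, 7062 to 7550 in LCS and 6521 to 6935 in WT. These sums are on the deposited scale, and the counts of markers are relative to the median gene. With the arrays shifted, the progenitor and fibroblast sums were 18500 to 19440 in G609G, 18460 to 18640 in LCS and 16200 to 17210 in WT. The G609G sum thus lay above WT, although 8 of these 10 markers were lower on that scale (median log2 fold -0.81). A linear sum gives most weight to the brightest markers. The endothelial sums with the arrays shifted were 7301 to 7368 in G609G, 5850 to 5896 in LCS and 4905 to 5098 in WT, with G609G above LCS. The other 6 lists kept the order of G609G, LCS and WT given above. No marker was at 0. The part of these cell types in the members' changes was not tested, and in bulk tissue fewer cells of a type and less RNA per cell cannot be told apart.

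Within genes, some probe sets moved apart from the rest, which exon arrays can show. The limma diffSplice test called 35 of 205 member probe sets in G609G minus WT, near the share of 15.7% over all probe sets. Of these, 22 in 14 genes were also called by a splicing index (probe set minus gene value), in which the variance is estimated per probe set. The share of all probe sets called both ways is not given here, so the 22 are not read as many or few. Without single WT arrays the diffSplice count was 20 to 23. In LCS minus WT it called 1, against 1.86% of all probe sets, and in G609G minus LCS 39, against 18.2%. Only probe sets called both ways are named.

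In Sfrp4, probe set 4421402 had deposited means of 10.15 ± 0.24 in G609G, 10.63 ± 0.14 in LCS and 10.40 ± 0.26 in WT (SD, n = 3), and so hardly took part in the fall that the other 6 showed (diffSplice adjusted p = 7.82e-07). In Dkkl1, probe set 5199180 fell furthest, to 4.42 ± 0.22 in G609G against 8.74 ± 0.06 in WT (adjusted p = 1.39e-07), and lay under the probe set filter of 5.01 in G609G. Probe set 4837122 of the same gene fell less, with 7.30 ± 0.34 in G609G and 9.16 ± 0.11 in WT (adjusted p = 4.65e-06). Probe set 4550376 of Fzd4 fell more than the rest, with 7.44 ± 0.29 in G609G and 9.04 ± 0.13 in WT (adjusted p = 2.82e-06). In Sfrp5, probe set 4798625 fell most, to 4.31 ± 0.42 in G609G against 9.97 ± 0.20 in WT (adjusted p = 1.05e-05), and it too lay under the filter of 5.01 in G609G. The call in LCS minus WT was probe set 5322841 of Sfrp1, which rose less than its gene, with 12.62 ± 0.08 in LCS and 12.38 ± 0.03 in WT (adjusted p = 0.0213). It was lost without any one WT array or without LCS replicate 1 or 2. Positions of the probe sets within the genes were not used here.

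**Figure D4:**
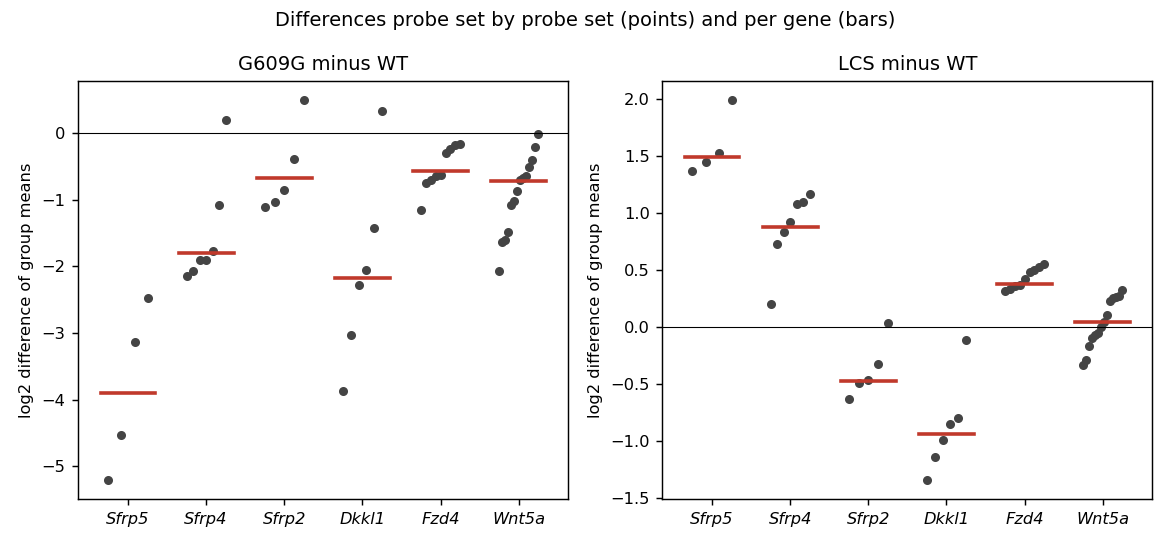
Log2 difference of group means (vertical axes, of different range) for each probe set of 6 members, G609G minus WT at left and LCS minus WT at right. Points are probe sets in order of size, and red bars are the fold of the gene. In Sfrp4, Sfrp2 and Dkkl1 a single point lies above 0 in G609G, while all 4 points of Sfrp5 and all 9 of Fzd4 are on the side of their gene in both panels.

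Other genes of the pathway were counted from lists chosen by role, beside 33.4% of all genes higher and 36.5% lower in G609G. Among co-receptors and surface modulators 0 of 13 tested genes rose (limma, and 0 also at an unadjusted p under 0.05) and 4 fell, including the glypican Gpc4 (log2 fold -1.28, SE 0.07), the ubiquitin ligase Rnf43, which removes Frizzled receptors (-0.68, SE 0.07), and the co-receptor Lrp6 (-0.48, SE 0.04). Of 4 genes for processing and secretion of ligands 2 fell, the Wnt carrier Wls, listed as Gpr177 (-0.47, SE 0.05), and the retromer subunit Vps35 (-0.37, SE 0.04). Of 4 other secreted antagonists 2 rose, Cer1 (0.61, SE 0.18) and sclerostin, Sost (0.60, SE 0.21). As deposited these differed by only 0.16 and 0.15, and the G609G and WT arrays of Sost overlapped. In the cytoplasmic relay 9 of 17 rose and 4 fell. Several of these rises depend on the shift. As deposited Dvl1, Dvl3, Axin1, Csnk1a1 and Csnk1d were below WT, while Csnk1e was above it. The median log2 fold of this list was 0.14 with the shift and -0.31 as deposited, against -0.01 and -0.46 over all genes. Frat1, which binds Gsk3, rose (0.82, SE 0.12), and Ctnnbip1, an inhibitor of beta-catenin (-0.84, SE 0.10), and the ubiquitin ligase subunit Btrc (-0.78, SE 0.05) fell. These list values are relative to the median gene unless called deposited. Each gene given here with its own log2 fold has the same sign as deposited.

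Among nuclear relay genes 3 of 10 rose and 6 fell in G609G. Tcf7, a DNA-binding partner of beta-catenin, averaged 6.77 in G609G, 7.27 in LCS and 8.61 in WT, with log2 folds of -1.83 (SE 0.07, adjusted p = 3.27e-10, limma) in G609G and -1.34 (SE 0.07, adjusted p = 2.71e-08) in LCS. Its relative Lef1 fell in G609G (-0.73, SE 0.08), and the corepressor Tle3 rose in G609G (0.75, SE 0.04) and in LCS (0.53, SE 0.04). Of 13 genes known as beta-catenin targets 5 rose and 4 fell in G609G, with Myc (1.16, SE 0.12) and Bambi (0.72, SE 0.12) higher and the cyclin Ccnd1 (-0.90, SE 0.07) lower. In the planar polarity and calcium branch 6 of 18 rose and 7 fell, with the kinase Camk2a higher (1.28, SE 0.11) and the cadherin Celsr2 (-0.86, SE 0.07) and the kinase Nlk (-0.78, SE 0.05) lower. The median log2 folds of these lists in G609G were -0.22, 0.12 and 0.06 in the order named, and -0.01 over all genes.

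In LCS, against 21.8% of all genes higher and 17.1% lower, 2 of 13 beta-catenin targets rose and 2 fell. Wisp2, a secreted matricellular protein, rose (log2 fold 1.20, SE 0.12, adjusted p = 5.91e-06, limma), and the feedback inhibitor Axin2 (-0.51, SE 0.07) and the receptor Tnfrsf19 (-0.64, SE 0.09) fell. Of the co-receptors and surface modulators 2 rose and 3 fell, with the R-spondin Rspo1 higher (0.47, SE 0.07) and Gpc4 (-0.40, SE 0.07) and Rnf43 (-0.34, SE 0.07) lower. In the planar polarity and calcium branch 7 of 18 rose, among them Camk2b (0.63, SE 0.04) and Vangl1 (0.26, SE 0.09), and 1 fell, Celsr2 (-0.50, SE 0.07). Of the cytoplasmic relay 1 of 17 rose, the kinase Csnk1e (0.34, SE 0.04), and 1 fell, Tnks (-0.18, SE 0.03). Igfbp4 (0.37, SE 0.04) was the called gene among the other antagonists and the acyltransferase Porcn (0.31, SE 0.07), which modifies Wnt ligands, the called gene among those for processing. Of nuclear relay genes 2 of 10 rose and 1 fell. The median log2 folds ranged from 0.01 to 0.12 over the 7 lists, and the median was 0.02 over all genes.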

How the data were processed

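The authors deposited log2 intensities per probe set, one array per sample, on genome build mm9 per the submitters' processing notes; the normalization and its software are not given in the sources used here. Of 229581 probe sets, 208397 carried 1 gene symbol in the platform annotation, 3965 several and 17219 none, and those with 1 symbol were summarised per gene by median polish. Each array was shifted by its median deviation from the gene means, relative to WT. Genes of 3 or more probe sets that exceeded the 25th percentile of gene means entered limma 3.58.1 (lmFit, eBayes with a trend, 9 arrays, Benjamini-Hochberg adjustment over all 11805 genes) in R 4.3.3 (package data.table, version 1.17.8), and probe sets with diffSplice. Python 3.11.15, pandas 2.3.3 and matplotlib 3.10.9 made the sequences and plots. In simulated data diffSplice called many unchanged probe sets, so a splicing index was required as well, a rule made after that was seen.

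Array values are given for members called at a fold of 1.5 or more and for the 4 of highest mean, up to 3 called genes per pathway list and direction of comparison, and at most 5 probe sets by diffSplice p. Members and lists were chosen with earlier results of these data known. Samples with the same replicate number in the titles had deviations with r above 0 in each pair of G609G and WT (r = 0.176, 0.150 and 0.348). The signs were mixed in LCS and WT (r = -0.120, 0.208 and 0.0876) and in G609G and LCS (r = -0.130, 0.122 and 0.109). The main tests did not pair the arrays, and the replicate block was run as an alternative. The labels do not say what a number shares. Alternatives were the scaling, summary, filter, variance model, samples, the replicate block, leaving out each array, and the methods' t-test.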

Additional observations from a re-analysis of the deposited data

How the results depend on the processing

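The members called at 1.5-fold or more against WT (6 in G609G, 4 in LCS) kept their direction and adjusted p under 0.05 under the shift, deposited, quantile and loess values, the replicate block and every array left out, but Dkk2 in G609G fell short of 1.5-fold as deposited (log2 fold 0.30) and with loess (0.54). As deposited, with no shift, 1 member was called higher and 16 lower in G609G minus WT (8 and 11 with the shift), and 0 higher (limma; 0 at an unadjusted p under 0.05, and 6 with quantile or loess scaling) and 20 lower in G609G minus LCS (6 and 12 with the shift). Quantile normalization left 3 lower in LCS minus WT (5 before). With no filter 14 members were higher in G609G minus WT, as were 14 in G609G minus LCS; above the 50th percentile 4 and 3 were, with fewer genes tested. The methods' t-test with a fold of 1.5 called 1 higher and 5 lower in G609G minus WT, 3 and 1 in LCS minus WT, and 3 and 7 in G609G minus LCS, the same after Benjamini-Hochberg. With the replicate block the counts were 10 and 11 in G609G minus WT, 5 and 4 in LCS minus WT, and 7 and 11 in G609G minus LCS; the blocked calls that changed in G609G minus WT are given with their genes. Loess, added after seeing the data, gave 8 and 8, 5 and 4, and 6 and 12 in the same order. Shares over all genes are given above only with the shift and as deposited. The other counts show how the number of member calls moves, and are not a result about the members against the array.

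Without single arrays, G609G minus WT had 5 to 11 higher (5 without WT replicate 3) and 9 to 11 lower, LCS minus WT 4 to 5 and 4 to 5, and G609G minus LCS 5 to 9 and 10 to 12. Probe set calls were 20 to 51 in G609G minus WT, 0 to 3 in LCS minus WT (diffSplice; 7 to 17 at an unadjusted p under 0.05) and 20 to 47 in G609G minus LCS, where 21, 24 and 20 were left without LCS replicates 1, 2 and 3. In LCS minus WT they were 2 above the 50th percentile and 3 with the replicate block, against 1. These counts too stand without the shares over all genes or probe sets under the same setting.

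As deposited, 14 members turned sign in G609G minus WT, and between G609G and LCS 11 did. Called on at least one of the scales were, in G609G minus WT, Dkk1 (-0.15), Fzd5 (-0.25), Fzd7 (-0.16), Sfrp1 (-0.18), Wnt10b (-0.33), Wnt2 (-0.01), Wnt2b (-0.15), Wnt4 (-0.36), Wnt5b (-0.017), Wnt7b (-0.40) and Wnt9a (-0.35), as log2 folds. The others there were Dkk3 (-0.21), Wnt11 (-0.21) and Wnt3a (-0.24), not called on either scale. In G609G minus LCS they were Wnt3a (-0.26) and Wnt5b (-0.19), not called on either scale, and Dkk3 (-0.24), Fzd5 (-0.37), Fzd7 (-0.30), Wnt10b (-0.48), Wnt11 (-0.45), Wnt2 (-0.11), Wnt7b (-0.40), Wnt9a (-0.36) and Wnt9b (-0.053), and under loess Wnt10b (-0.22) and Wnt7b (-0.0068) turned. Against WT, loess turned 2 in G609G, and quantile normalization and the plain mean of probe sets 1 each; between G609G and LCS quantile normalization turned 3, and in LCS minus WT 1 to 4 turned per setting. None of these was called before or after (adjusted p of 0.421 or more). The shift itself, a constant per array, moves these values; the cause of the other changes was not tested. Signal near background limits what can be said of dim members.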
